A study of Mus musculus with 2 samples.

Results

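The 42 genes described here encode proteins of synaptic vesicles, of the active zone at which vesicles fuse, and of the dense-core granules that store neuropeptides. They were listed by symbol, with no measured value in the rule, but with earlier results of these data known. All 42 were found among the 21896 gene symbols of the deposited data. Vesicle fusion in neurons runs through a fixed set of steps. Active zone scaffolds hold the vesicle, SNARE proteins on vesicle and plasma membrane zip together, complexins hold the zipped complex, and synaptotagmins trigger fusion when calcium enters. Granins and their helpers pack peptides into larger dense-core granules, which fuse by the same machinery. Many of these genes carry RE1, a DNA element bound by the repressor REST, which recruits CoREST proteins and the histone demethylase LSD1 (Kdm1a) and keeps neuronal genes low outside neurons. Rcor2 is a CoREST family member.

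The tissue was the germinal layer of the cortex, its ventricular and subventricular zones (VZ–SVZ), cut from slices of C57/BL6 mouse embryos at E13.5. The control library was Rcor2fl/fl, with floxed Rcor2 alleles, and the other was Rcor2cko, the same floxed alleles with Nestin-driven Cre (NesCre), which is active in neural progenitors and their progeny of the whole nervous system. The embryos came from crosses between Rcor2fl/+NesCre mice, and how many embryos went into a library is not given in the sources used here. With 1 library per genotype there was no replicate, no test and no p-value, so every difference is one between these 2 libraries.

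Levels are given in FPKM, fragments scaled to transcript length and to library size, which can be compared between genes, and where a pair of levels is given the Rcor2fl/fl library comes first. Changes are log2 ratios of (FPKM + 0.1), Rcor2cko over Rcor2fl/fl, which understate the change of low genes. For genes with 1 transcript the steps between low FPKM values gave whole fragments, with scaling totals of 18841651 (Rcor2fl/fl) and 25479855 (Rcor2cko). For those genes the log2 ratio of fragments has a 95% interval, exact by Clopper-Pearson, which covers counting error only. At this depth 3 fragments of a 2000 nt transcript correspond to 0.0882 and 0.0654 FPKM. Rcor2 itself, counted over all exons, was at 90.6 and 55.7 FPKM, a change of -0.70. For its floxed exons alone, the study reports that RNA was absent from Rcor2cko cortex at E13.5. Xist, the RNA of the inactive X chromosome, was at 177 and 0.109 FPKM, so that a difference in embryo sex cannot be told apart from genotype. Both libraries held progenitor and neuronal RNA, since the 9 radial glia markers found summed to 890 and 1038 FPKM and the 11 pan-neuronal markers found to 1223 and 1191 FPKM, with none of either list at 0.

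The 20785 genes with a position in the annotation used were searched for letters like those of RE1, to show which of the 42 hold them. For this, 2000 bases to each side of 1 start site per gene, the outermost, were read from NCBIM37, the assembly called mm9. Other start sites of a gene were given no window of their own. The search letters were TTCAGCACC, then 2 free bases, then GGACAGNGC, on both strands, with up to 3 mismatches over the 17 fixed letters. Of the 42 genes, 10 held such a match, or 23.8%, against 556 of 20785 genes with a window, or 2.68%. With at most 1 mismatch the shares were 21.4% and 0.284%. Many of the 42 genes were known REST-regulated genes when the list was made. The higher share therefore describes how the list was chosen and is no test. The 9 matches below are printed in the direction of the element, with capitals for letters that fit the search and lower case for free or mismatched bases. Syt4 also held a match, without mismatch, 227 nt inside its start site, and its sequence is not shown.
Stmn2, chr3:8508230-8508249, plus strand: TTCAGCACCacGGACAGcGC
Syt6, chr3:103377912-103377931, plus strand: TTCAGCACCgcGGACAGgGa
Snap25, chr2:136540074-136540093, plus strand: TTCAGCACCgcGGACAGcGa
Syp, chrX:7215863-7215882, plus strand: TcCAGCACCgtGGACAGaGC
Syn1, chrX:20498257-20498276, minus strand: TTCAGCACCgcGGtCAGaGC
Chga, chr12:103793448-103793467, plus strand: TTCAGCACCtcGGACAGcaC
Chgb, chr2:132607530-132607549, plus strand: TTCAGCACCccGGACAGctC
Vgf, chr5:137506145-137506164, minus strand: TTCAGCACgctGGACAGcGC
Slc17a6, chr7:58877231-58877250, minus strand: TTCAGgACCacGGACAGaGg

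Syt6 and Snap25 each held a second match in the window, and the one with fewest mismatches is shown. The match shown or counted lay upstream of the gene in Stmn2, Syt6, Syn1 and Vgf, in an intron in Snap25, Chga and Chgb, and over an exon in Syp, Slc17a6 and Syt4. With upstream negative, its centre lay at -1288 nt from the start site in Stmn2, at -1233 nt in Syt6, at -11 nt in Vgf and at 894 nt in Snap25. A match of letters describes the sequence and does not show that REST or Rcor2 is bound there. No match in a window says only that these letters are absent from it.

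Of the 42 genes, 39 reached 1 FPKM in either library and were compared. Of these, 5 were higher by more than 1.5-fold with Rcor2cko, namely Scg2, Syt13, Syt6, Nrxn3 and Syt4, and 1 was more than 1.5-fold lower, Cplx1. The share of genes higher was 12.8%, against 3.79% of the 11777 genes compared in all, and the share lower was 2.56% against 1.76%. The others lay within 1.5-fold. Over the 39 genes the median change was -0.09, over all genes compared it was -0.03, and the vesicle genes lay on both sides, 19 above 0 and 20 below, where 42.4% of all genes compared were above 0 and 57.6% below. Low genes pass 1.5-fold more often, and a split at a mean of 5 FPKM, chosen after seeing the data, gave a background of 10.6% higher under 5 FPKM and 1.19% at or above it. Of the 7 vesicle genes under 5 FPKM, 3 were higher, and of the 32 at or above it 2 were higher and 1 was lower, where 0.679% of all genes were lower. Syt2, Sv2c and Vgf stayed under 1 FPKM in both libraries and were not compared.

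**Figure D1:**
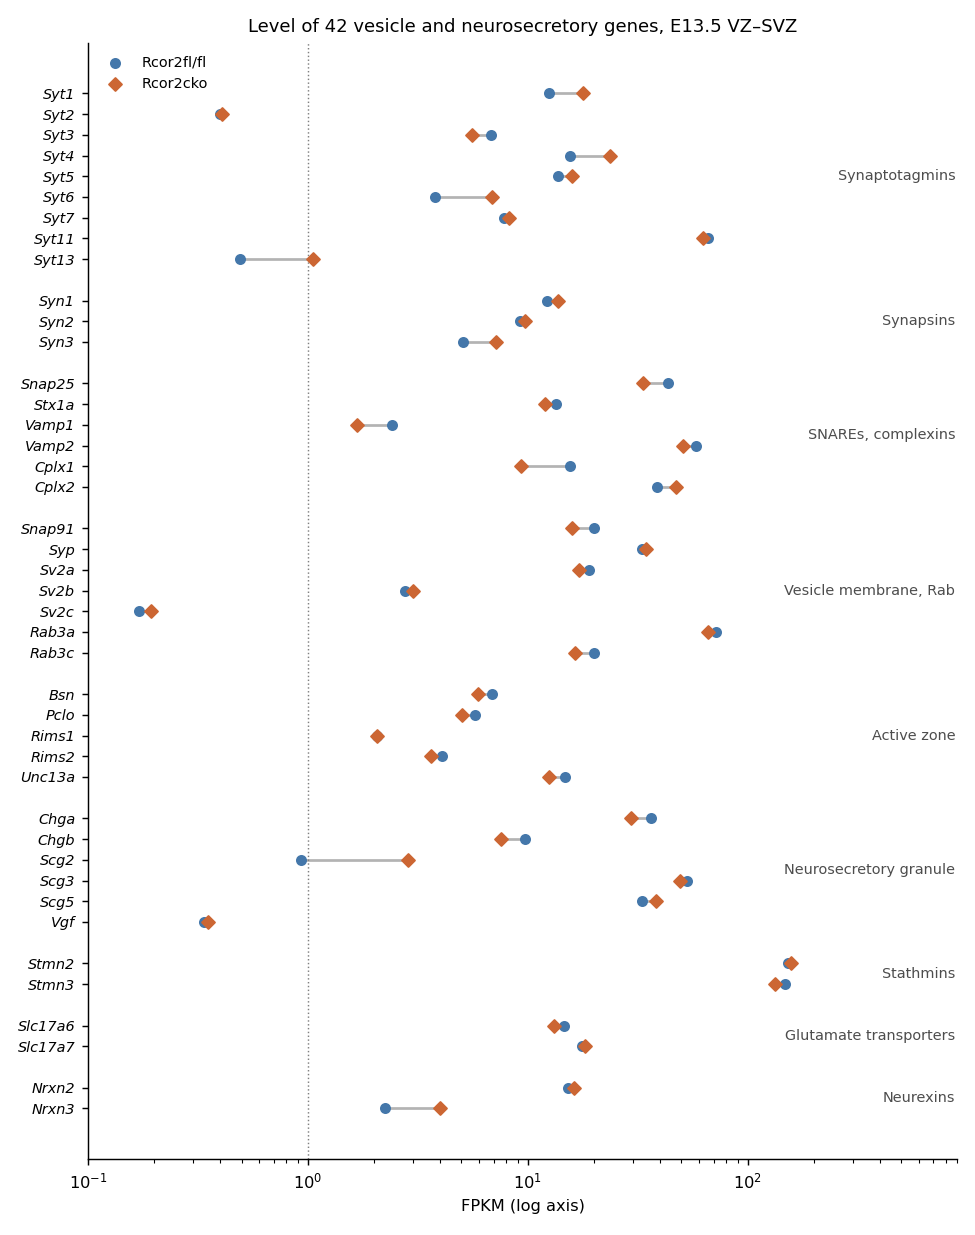
FPKM (log axis) of each of the 42 genes in the Rcor2fl/fl library (blue circles) and the Rcor2cko library (orange diamonds), grouped by role, with the 1 FPKM filter dotted. Levels span from 0.170 FPKM for Sv2c to 158 FPKM for Stmn2, and for most genes the paired symbols nearly coincide, with the widest gaps at Scg2, Syt13, Syt6, Nrxn3 and Cplx1.

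Most of the vesicle genes were already detected in the dissected E13.5 VZ–SVZ tissue, which held neuronal as well as progenitor RNA. Which of its cells held these transcripts was not tested. In both libraries 23 of the 42 genes were at 10 FPKM or more. Their median in control tissue was 14.6 FPKM over the 39 compared, against 10.5 FPKM over all genes compared. The highest levels were those of the stathmins Stmn2 and Stmn3, which destabilise microtubules in growing axons. Fragments could be recovered for 27 of the compared genes. The exact interval lay above 0 in 8 of them, below 0 in 13, and included 0 in 6. Over the 8460 compared genes with fragments, the interval lay above 0 in 13.7% and below 0 in 23.9%. These intervals narrow with depth and hold no biological spread, so a small shift between the libraries is enough to clear 0 in a well covered gene.

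Of the 8 synaptotagmins compared, 6 had a change above 0 (42.4% of all genes) and 3 were more than 1.5-fold higher (3.79% of all genes), with a median of 0.37. With so few genes these counts describe the family and are no test of it. Syt6, a synaptotagmin of the calcium-binding kind, occupies 103379154 to 103449490 of mm9 chromosome 3, plus strand, and was at 3.80 and 6.90 FPKM. Its 302 and 741 fragments gave an interval from 0.66 to 1.06 around a change of 0.85. Syt13, an atypical synaptotagmin thought not to bind calcium, lies on chromosome 2 from 92755255 to 92796215. It was at 0.492 and 1.06 FPKM, from 33 and 96 fragments, which is a change of 0.97, and the fragment ratio had an interval of 0.52 to 1.72. Its deposited 95% FPKM intervals overlapped, so it is the least certain of the 5 genes higher.

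Syt4, an unusual synaptotagmin found on dense-core vesicles, was at 15.5 and 23.6 FPKM, from 1085 and 2221 fragments. Its log2 change of 0.60 was barely past 1.5-fold, which is 0.58 on this scale, and the interval from 0.49 to 0.70 spans that line. With a pseudocount of 1 FPKM it fell short, at 0.57. Syt1, the main fast calcium sensor of forebrain synapses, came close without passing, at 12.5 and 17.9 FPKM. Its log2 change was 0.52 and its interval, from 0.40 to 0.64, lay above 0. Syt1 and Syt4 were thus higher in the Rcor2cko library by a like amount, on either side of the line.

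The other synaptotagmins differed little. Syt5, at 13.7 and 15.9 FPKM, had an interval from 0.03 to 0.39. Syt7, a slow high-affinity calcium sensor, was at 7.84 and 8.25 FPKM, and its 3 transcripts were nearly even in the Rcor2fl/fl library, at 2.78, 2.65 and 2.41 FPKM. Syt11, the most abundant of the family here and one that does not sense calcium, was at 66.3 and 62.4 FPKM, a change of -0.09. Syt3 was the lowest in change, at 6.83 and 5.61 FPKM and -0.28. Syt2, a calcium sensor known from fast synapses of the hindbrain and spinal cord, was at 0.399 and 0.407 FPKM from 24 and 33 fragments.

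**Figure D2:**
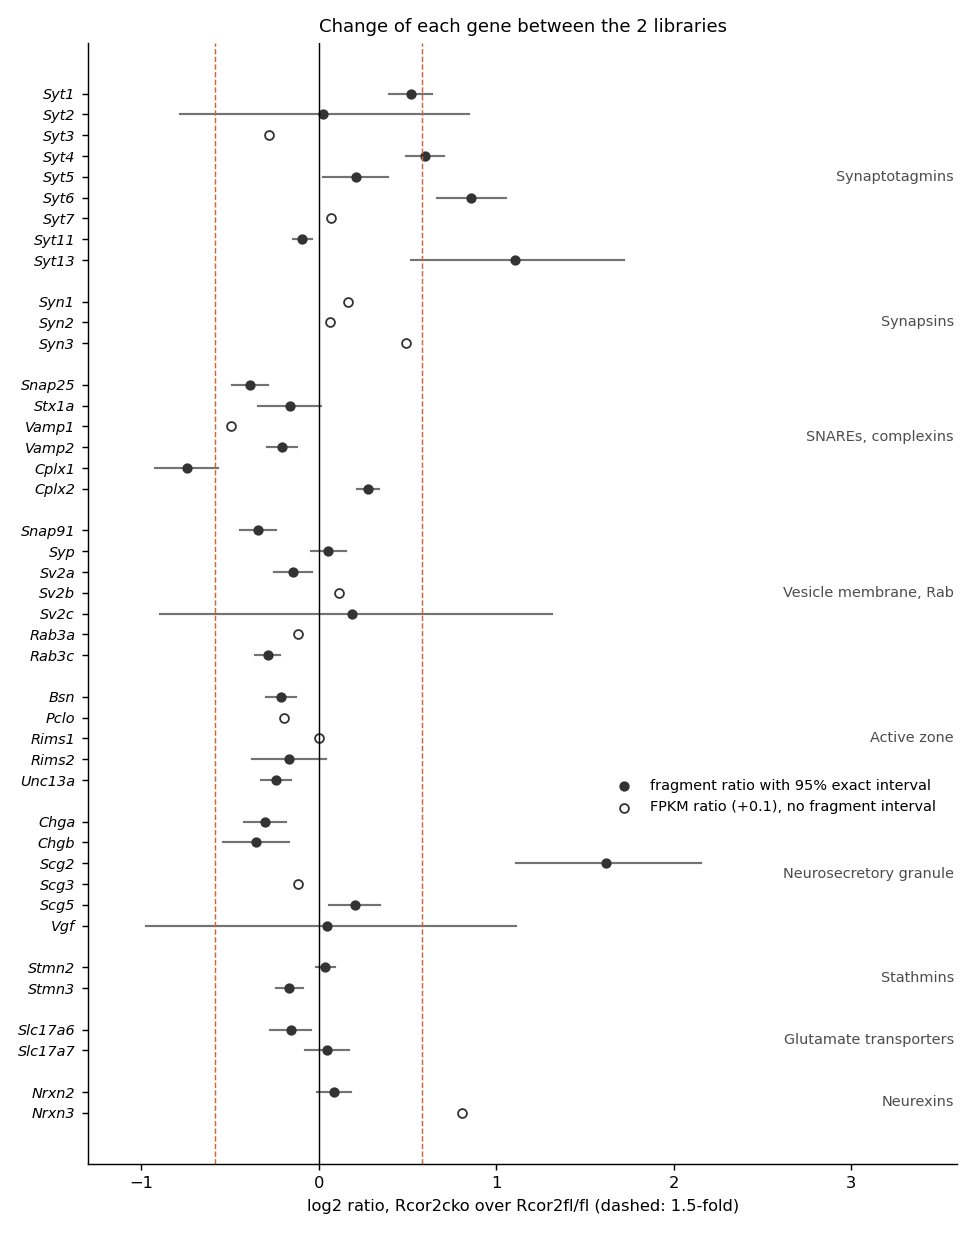
Log2 ratio of Rcor2cko over Rcor2fl/fl for each of the 42 genes, grouped by role. Filled points are recovered fragment ratios with 95% exact intervals, open points are ratios of (FPKM + 0.1) for genes with several transcripts, and dashed lines mark 1.5-fold. Scg2 stands farthest to the right at 1.62, Cplx1 farthest to the left at -0.74, and Syt2, Sv2c and Vgf have the widest intervals.

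The synapsins, phosphoproteins that tether vesicles in a reserve pool, all had a change above 0, as had 42.4% of all genes compared. Syn3 was at 5.07 and 7.18 FPKM, a change of 0.49, and its deposited FPKM intervals did not overlap, although exons of Timp3 on the opposite strand overlap 1733 of its exon bases. Syn1 was at 12.2 and 13.7 FPKM, a change of 0.16. Syn2 was at 9.26 and 9.69 FPKM, a change of 0.07. The deposited intervals of the libraries overlapped for both Syn1 and Syn2. None of the 3 was past 1.5-fold.

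Of the 6 SNARE and complexin genes of the fusion machinery, 5 had a change below 0, as had 57.6% of all genes, and their median was -0.29. Cplx1, which encodes a complexin that clamps and then promotes SNARE-driven fusion, lies on chromosome 5 from 108947573 to 108979043 on the minus strand. Its level was 15.6 FPKM in control tissue and 9.36 FPKM in Rcor2cko tissue. The change was -0.73, and its 588 and 475 fragments gave an interval from -0.92 to -0.57. Its paralogue Cplx2, the more abundant of the pair, went the other way, at 38.9 and 47.2 FPKM, a change of 0.28 (interval 0.22 to 0.34). The 2 complexin genes thus differed in opposite directions, each by more than counting error.

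Among the SNAREs, Snap25, the plasma membrane SNARE that pairs with syntaxin, was at 43.5 and 33.4 FPKM, from 1576 and 1630 fragments. The change of -0.38 had an interval below 0, from -0.49 to -0.29. Vamp2, the main vesicle SNARE (synaptobrevin), was at 58.3 and 50.7 FPKM, a change of -0.20. Vamp1, its sparser relative, was at 2.40 and 1.67 FPKM, a change of -0.50, with overlapping deposited intervals. Stx1a, syntaxin, was at 13.4 and 12.05 FPKM, and its interval from -0.34 to 0.02 included 0. The 4 SNARE genes were thus all lower in the Rcor2cko library, none of them past 1.5-fold.

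Of the vesicle membrane, coat and Rab genes, 6 were compared and none was past 1.5-fold, with a median log2 change of -0.13. Snap91 encodes AP180, which assembles clathrin on vesicles being retrieved. It was at 20.1 and 15.9 FPKM, a change of -0.34 with an interval from -0.44 to -0.24. Rab3c, a small GTPase of vesicles, was at 20.1 and 16.5 FPKM, a change of -0.28. Its relative Rab3a was at 71.6 and 65.9 FPKM, a change of -0.12. Syp, synaptophysin, a vesicle membrane protein, was at 33.2 and 34.5 FPKM, and its interval from -0.05 to 0.15 included 0. The SV2 glycoproteins, of which SV2A is the target of levetiracetam, were ranked alike in both libraries. Sv2a was at 19.0 and 17.2 FPKM, Sv2b at 2.77 and 3.01 FPKM, and Sv2c at 0.170 and 0.194 FPKM. Syp and Syn1 are the members on the X chromosome, and without them the median log2 change was -0.12 with the same counts of 5 and 1.

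The 5 active zone genes were within 1.5-fold, with a median of -0.19, and 4 of them were below 0, against 57.6% of all genes. Bsn and Pclo encode bassoon and piccolo, giant scaffolds of the active zone. Bsn was at 6.90 and 5.97 FPKM from 2048 and 2392 fragments, a change of -0.21, and Pclo was at 5.76 and 5.02 FPKM, a change of -0.19. Unc13a encodes Munc13-1, which primes vesicles for fusion, and was at 14.7 and 12.5 FPKM, a change of -0.24 with an interval from -0.33 to -0.16. The RIM scaffolds link vesicles to calcium channels. Rims1 was at 2.06 FPKM in both libraries, and Rims2 was at 4.08 and 3.64 FPKM with an interval from -0.38 to 0.04.

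The glutamate loaders of vesicles differed little. Slc17a6, VGLUT2, was at 14.6 and 13.1 FPKM, a change of -0.15 (interval -0.27 to -0.04). Slc17a7, VGLUT1, was at 17.6 and 18.2 FPKM, a change of 0.05 with an interval from -0.08 to 0.17. The neurexins, presynaptic adhesion molecules, did not move alike. Nrxn3, on chromosome 12 from 89961320 to 91573375 on the plus strand, was at 2.23 and 3.99 FPKM, a change of 0.81. Its deposited intervals, 1.76 to 2.70 FPKM for Rcor2fl/fl and 3.31 to 4.67 FPKM for Rcor2cko, did not overlap, and in the Rcor2fl/fl library the whole level came from the 7937 nt transcript. Nrxn2 was at 15.2 and 16.2 FPKM, with an interval from -0.01 to 0.18.

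Among the granule genes, Scg2 had the largest change of the 42. Scg2 encodes secretogranin II, the precursor of secretoneurin, and lies on chromosome 1 from 79431244 to 79436665 on the minus strand. Control tissue gave 0.927 FPKM from 40 fragments and Rcor2cko tissue 2.85 FPKM from 166. The change was 1.52, and the interval of the fragment ratio ran from 1.11 to 2.15. Scg2 and Syt13 were the compared genes whose plain FPKM ratio was above 2, at 3.08 and 2.16, and with 0.1 FPKM added Syt13 fell just short of 2-fold.

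The chromogranins, which drive granule formation, went the other way. Chga was at 36.3 and 29.6 FPKM, a change of -0.30 (interval -0.42 to -0.19). Chgb was at 9.68 and 7.59 FPKM, a change of -0.35 with an interval from -0.54 to -0.17. Scg2 and the chromogranin genes thus differed in opposite directions, and whether the same cells held their RNA was not tested. The changes of Chga and Chgb lay between the 5th and 95th percentiles of all genes compared, -0.38 and 0.47. Scg3, which binds chromogranin A, was at 53.2 and 49.0 FPKM, a change of -0.12. Scg5, the 7B2 chaperone of the prohormone convertase PC2, was at 33.2 and 38.5 FPKM, a change of 0.21 with an interval from 0.06 to 0.35. Vgf, a neuropeptide precursor, was at 0.337 and 0.350 FPKM from 15 and 21 fragments, and no difference was detectable at this depth. Stmn2 was at 153 and 158 FPKM, a change of 0.04 with an interval from -0.01 to 0.09, and Stmn3 was at 149 and 134 FPKM, a change of -0.15.

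The genes with an RE1-like match did not share a direction. Of the 9 that were compared, Syt6 and Syt4 were more than 1.5-fold higher, and Chga, Chgb, Snap25 and Slc17a6 had intervals below 0. Stmn2, with a match in every fixed letter, and Syp had intervals that included 0, and Syn1 had a change of 0.16. The median log2 change was 0.04 for these 9 genes and -0.10 for the 30 without a match, of which 3 were higher and 1 was lower. Over all genes with a window and compared, 5.66% of the 318 with a match and 3.72% of the 11144 without were more than 1.5-fold higher, with medians of -0.02 and -0.03. Scg2, Syt13, Nrxn3 and Cplx1, the other genes past 1.5-fold, had at least 5 mismatches at their best position. Among the genes of the complex, Rest was at 3.32 and 3.77 FPKM, with an interval from -0.05 to 0.41, and Kdm1a was at 83.7 and 81.1 FPKM. Rcor1 was at 13.4 and 11.5 FPKM, a change of -0.22, and Rcor3 at 4.74 and 5.38 FPKM, a change of 0.18. Rcor2 was the 1 gene of the 10 in that list past 1.5-fold.

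**Figure D3:**
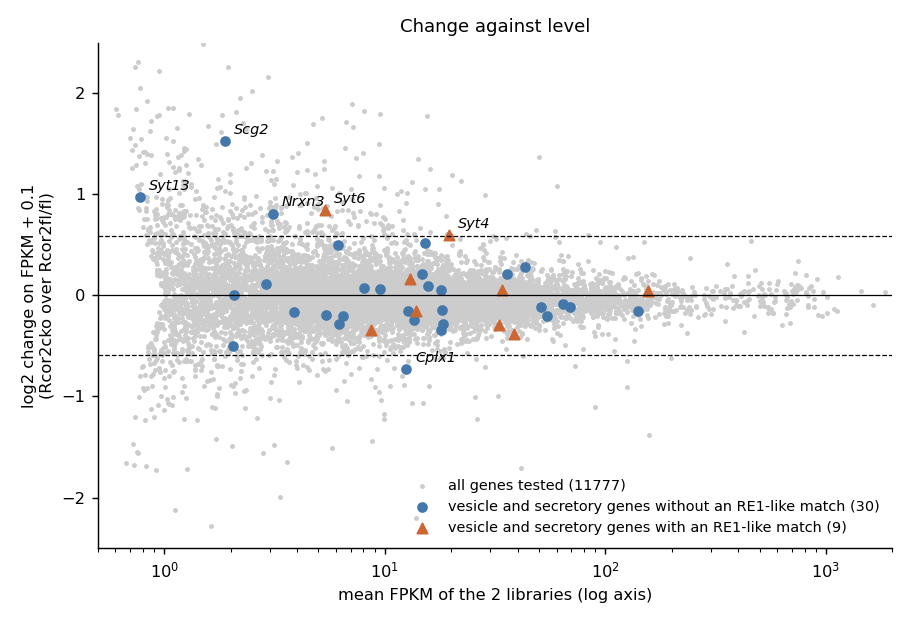
Log2 change on FPKM + 0.1 against the mean FPKM of the libraries (log axis) for all genes compared (grey), for the 30 vesicle and secretory genes without an RE1-like match (blue circles) and for the 9 with one (orange triangles). Dashed lines mark 1.5-fold, 44 genes lie outside the axes, and the triangles lie on both sides of 0, with Syt6 and Syt4 above the upper line.

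The data also held 110 other genes of vesicle release and recycling. Of the 89 compared, 7 were more than 1.5-fold higher, or 7.87% against 3.79% of all genes, and none was more than 1.5-fold lower, with a median log2 change of 0.02, and no test was possible with 1 library per genotype. Of the 7, 6 were among the 25 genes with a mean under 5 FPKM, where 10.6% of all genes were higher, and 1 was among the 64 at or above it. Slc18a2, the vesicular monoamine transporter, was at 0.382 and 2.60 FPKM, a change of 2.49, and Slc32a1, the vesicular GABA transporter, was at 1.95 and 4.31 FPKM, a change of 1.10. Doc2b, a calcium sensor related to the synaptotagmins, was at 0.878 and 3.34 FPKM, a change of 1.81. The others were Sypl2 at 0.82, Rimbp2 at 0.80, Syt16 at 0.69 and Vamp8 at 0.59 on the log2 scale.

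Markers of some other cell types also differed between the libraries. Over all genes compared, 3.79% were more than 1.5-fold higher and 1.76% lower. Of 10 markers of GABAergic neurons, all compared, 7 were more than 1.5-fold higher and 1 lower in the Rcor2cko library. Their summed level was 59.6 and 108 FPKM, their median log2 change was 1.07, and none was at 0. Slc32a1 is on both this list and the vesicle list. All 5 compared markers of Cajal-Retzius cells were more than 1.5-fold lower, and the sum over the 6 found was 55.2 and 26.4 FPKM. By contrast, the 11 pan-neuronal markers had a median log2 change of -0.02 and the 7 markers of cortical projection neurons one of -0.07, with none past 1.5-fold. The part of these cell types in the differences of Scg2, Syt6, Syt13, Nrxn3, Syt4 and Cplx1 was not tested, and in bulk tissue fewer cells of a type and less RNA per cell cannot be told apart. The choroid plexus markers summed to 1.04 and 62.9 FPKM, and 3 of 3 compared were higher. Ttr, transthyretin, made up most of it, listed at 0 in control tissue and at 57.8 FPKM in Rcor2cko tissue, from 1503 fragments, and Kl was at 0 in control tissue and at 0.00798 FPKM in the other. Of the microglia markers 4 of 7 were higher, with sums of 16.3 and 24.3 FPKM. Those 4 had means under 5 FPKM, where 10.6% of all genes compared were higher. Of the neuroendocrine markers, Dbh was at 0 in both libraries, and Isl1 was at 0 in control and 2.23 FPKM in Rcor2cko tissue. The part of these cells was not tested either.

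**Figure D4:**
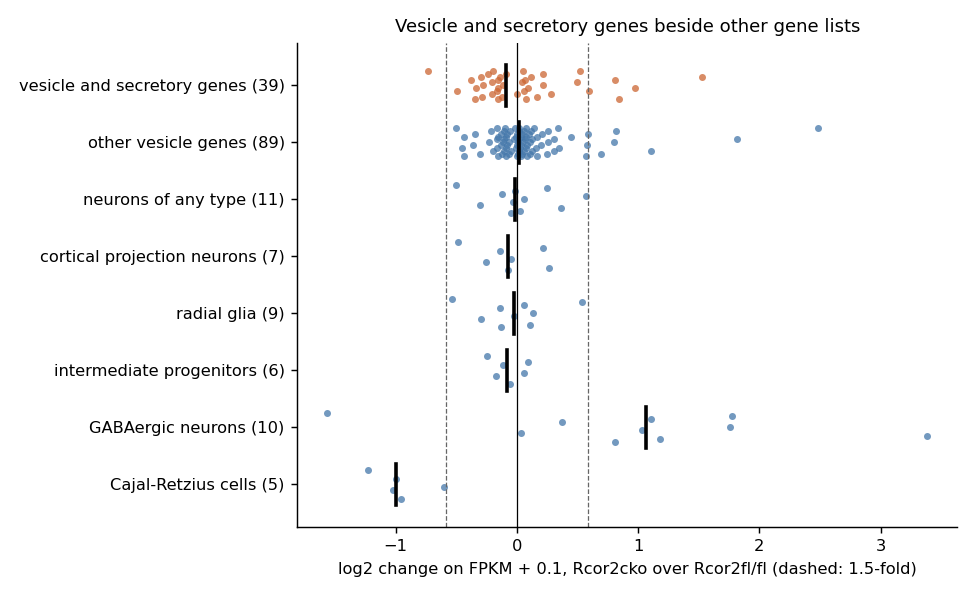
Log2 change on FPKM + 0.1 of every compared gene in 8 lists, with the number compared in brackets, black bars for medians and dashed lines at 1.5-fold. The vesicle and secretory genes centre at -0.09, intermediate progenitor markers at -0.08, cortical projection neuron markers at -0.07, and pan-neuronal and radial glia markers at -0.02. The GABAergic markers centre at 1.07 and all 5 Cajal-Retzius markers lie at or below -0.60.

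Overlapping genes limit some values, since the counting is not stated to have used strand. Exons of another gene overlapped those of 10 of the 42 genes, all on the opposite strand. Among the genes past 1.5-fold, this concerned Syt4, with 575 overlapped exon bases (Gm16871), and Syt6, with 503 (Atg4a-ps). Scg2, Syt13, Nrxn3 and Cplx1 had no such overlap. Without these 10 genes, 3 were higher and 1 was lower.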

How the data were processed

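The mRNA-seq libraries, 1 of Rcor2fl/fl and 1 of Rcor2cko, were analysed, grouped by the genotype label. The authors used RNeasy columns and a stranded mRNA kit and mapped reads to mm9 with TopHat at default settings, for which the submitters' processing notes name version 1.3.3 beside Cufflinks 1.2.0, and the study's methods another TopHat version. They deposited FPKM values with 95% bounds, in 27641 rows per transcript for Rcor2fl/fl and 21896 rows per gene for Rcor2cko.

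Transcript rows were summed per gene. Genes that reached 1 FPKM in either library were compared on log2(FPKM + 0.1) with a fold of 1.5, with no further scaling. In 1-transcript genes of 1000 nt or longer, FPKM times (length less 194.0 nt for Rcor2fl/fl or 200.9 nt for Rcor2cko) fell on whole fragments. Of values up to 100 fragments, 99.3% of 4013 and 99.4% of 3958 lay within 0.1 of a whole number. The recovery was also run on fragments simulated with the same relation and the same fitted lengths and totals. That run checks the calculation only and cannot show that the deposited values follow the relation. Fragments were not recovered for the 12 of the 42 genes with several transcripts.

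The genes and the comparison lists were chosen with earlier results of these data known. All 42 genes are named. Other vesicle genes are named if past 1.5-fold with a mean of at least 1 FPKM. Of the marker lists, counts, sums and markers at 0 are given. Positions are from GENCODE vM1 on NCBIM37, counted from 1, and start sites are the outermost starts of protein-coding transcripts. Python 3.11.15, numpy 2.4.6, pandas 2.3.3, scipy 1.17.1 and matplotlib 3.10.9 were used.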

Additional observations from a re-analysis of the deposited data

How the results depend on the processing

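Of 15 alternatives, 13 were set at the start and 2 were chosen after seeing the data. The count of 5 genes higher became 3 with a pseudocount of 1 FPKM, 3 where both libraries had to reach 1 FPKM, 2 where either had to reach 5 FPKM, 1 with a fold of 2, 9 with the highest row per gene, 4 where the FPKM intervals had to be apart (without Syt13), 4 where the exact interval had to exclude 0 (Nrxn3 has no fragments to judge), and 3 without genes whose exons overlap another gene, the last 2 chosen after seeing the data. The count of 1 gene lower became 0 with a fold of 2 and stayed at 1 under the other 14. The highest row per gene lowers Rcor2fl/fl alone, which was deposited by transcript, and the filters remove low genes. The median log2 change of -0.09 became 0.0131 without a filter, which takes in all 42 genes, and 0.0575 with the highest row per gene, and ranged from -0.15 to 0.06 over the alternatives that give one. Median, upper-quartile and total scaling kept the same 5 and 1 genes. Apart from settings that left a gene out, Syt4 was not past the threshold with a pseudocount of 1 FPKM or a fold of 2, Syt13 with those or with the FPKM intervals, and Syt6, Nrxn3 and Cplx1 with a fold of 2. Of 294 single-gene values under the alternatives, 286 stayed within the counting or deposited interval and 8 moved outside it, and no gene past 1.5-fold changed sign. No paired analysis was possible because each genotype has a single library. Depth limits Syt2, Sv2c and Vgf most, at 13 to 33 fragments a library.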

Other observations

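The 12 housekeeping genes had a median log2 change of -0.10 and the 6 markers of intermediate progenitors one of -0.08, with sums for the latter of 283 and 268 FPKM in the Rcor2fl/fl and Rcor2cko libraries, and neither list had a gene past 1.5-fold. The 7 endothelial markers, at a median of 0.12, and the 4 erythroid markers compared, at -0.14, had none past 1.5-fold either. Of the thalamic markers 1 of 2 compared was lower, with sums of 6.56 and 4.41 FPKM. The meningeal and mesenchymal markers summed to 2.21 and 3.44 FPKM, and the 1 compared was higher.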
